A study of Mus musculus with 6 samples.

Results

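The interferon regulatory factors examined here were 5 genes, Irf1, Irf2, Irf4, Irf7 and Irf8. Members were all probe sets whose symbol in the array annotation was one of these names, which gave 5 probe sets of 12488, standing for 4 of the 5 genes. Irf1, Irf4 and Irf8 had 1 probe set each and Irf7 had 2, and no probe set was listed for Irf2, so Irf2 has no value below. The probe sets were thus found by name and not by a measured value. The 5 genes, and the setting of Irf4 against Irf8, were however chosen with earlier results of these data known. The cells were intraepithelial lymphocytes (IEL), T cells that live between the epithelial cells of the gut lining, taken from the small intestine of untreated C57BL/6 mice under 8 weeks of age with no engineered allele named. The 3 subsets were sorted by their T cell receptor (TCR) and by the form of CD8 on the surface: TCRab CD8aa, TCRgd CD8aa and TCRab CD8ab. In each of 2 experiments all 3 subsets came from 1 pool of 20 mice, and each sorted sample was hybridised to 1 array, so there were 6 arrays with 2 per subset. An array therefore stands for a pool and not for a mouse. The question was in which subsets these factors were expressed, and whether the subsets with the CD8aa homodimer differed from the TCRab CD8ab subset.

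Interferon regulatory factors are transcription factors that share a DNA-binding domain and take part in interferon responses and in the development of immune cells. Irf4 is induced through the antigen receptor in T cells, where it works with AP-1 factors such as Batf, and Irf8 is best known for the development of monocytes, dendritic cells and B cells. Irf1 and Irf7 are interferon-inducible, Irf1 being a driver of antigen presentation genes and Irf7 of type I interferon genes.

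The promoters of Irf4, Irf8 and Irf1 are shown because Irf4 and Irf8 differed between the subsets in opposite directions and Irf1 did not pass the test. Each sequence is the RefSeq promoter on build GRCm38.p6, from 250 bases before to 50 bases after the start of the gene, and all 3 lie on the + strand. The array files name no build, so these coordinates belong to RefSeq only. Irf4 lies at chr13:30748983-30749282, Irf8 at chr8:120736108-120736407 and Irf1 at chr11:53769764-53770063, the last 2 being the first of 2 RefSeq promoters of their gene. Capitals mark matches to TTCNNNGAA, the gamma-activated site that STAT dimers bind.
Irf4: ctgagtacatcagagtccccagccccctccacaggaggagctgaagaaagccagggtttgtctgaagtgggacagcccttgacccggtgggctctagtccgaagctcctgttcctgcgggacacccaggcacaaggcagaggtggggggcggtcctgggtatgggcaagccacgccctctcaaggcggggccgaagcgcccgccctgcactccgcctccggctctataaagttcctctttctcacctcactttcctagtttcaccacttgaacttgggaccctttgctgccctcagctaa
Irf8: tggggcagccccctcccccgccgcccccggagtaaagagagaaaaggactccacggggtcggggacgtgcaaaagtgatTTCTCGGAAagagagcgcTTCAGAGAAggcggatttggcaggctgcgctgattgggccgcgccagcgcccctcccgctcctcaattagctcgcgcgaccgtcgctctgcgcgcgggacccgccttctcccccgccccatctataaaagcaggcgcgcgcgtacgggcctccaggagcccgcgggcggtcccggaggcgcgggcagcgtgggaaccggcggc
Irf1: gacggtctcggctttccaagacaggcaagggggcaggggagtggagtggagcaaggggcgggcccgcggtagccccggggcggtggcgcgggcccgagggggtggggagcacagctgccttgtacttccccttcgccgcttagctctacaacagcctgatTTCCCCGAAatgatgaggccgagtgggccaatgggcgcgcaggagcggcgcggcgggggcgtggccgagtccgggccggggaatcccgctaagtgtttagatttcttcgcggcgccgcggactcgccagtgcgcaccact
The Irf8 promoter held 2 matches, TTCTCGGAA starting 171 bases and TTCAGAGAA starting 153 bases upstream of the start, and the Irf1 promoter held TTCCCCGAA starting 90 bases upstream. The Irf4 promoter held none within these 300 bases. Over 32851 RefSeq promoters of this length, 8.298% held at least 1 match. The core of the interferon-stimulated response element, a pair of GAAA runs separated by any 2 bases, was searched on both strands and was in none of these 3 promoters, against 3.443% of all promoters. The Irf4 and Irf8 promoters each held TATAAA, starting 26 and 31 bases upstream, as did 13.62% of all promoters. No match overlapped another. The second promoters of Irf8 and Irf1 held none of the 3 motifs, and the promoter of Irf7 held only TATAAA, starting 29 bases upstream. The promoter of Irf2, the member with no probe set, held TTCCGAGAA starting 224 bases and the response element core GAAAATGAAA starting 241 bases upstream.

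Values are MAS5 signals, a linear brightness per probe set after scaling of each array to a common mean, and signals of different probe sets cannot be compared as levels. All 6 arrays had a trimmed mean near 500.4, with medians between 83.4 and 113.4. All 11 T cell and IEL markers lay above the floor on every array, and Cd8b1, the beta chain of CD8, was lower by 7.73 ± 0.65 log2 units in the CD8aa subsets than in TCRab CD8ab (SE; limma adjusted p = 0.000728), as the labels say. Cd8b1 had 29.5 and 182.1 in TCRab CD8aa and 28.1 and 763.1 in TCRgd CD8aa in experiments 1 and 2. In TCRab CD8ab it had 17647 and 27592. Both CD8aa subsets were thus higher in Cd8b1 in experiment 2, and the part of this in the Irf4 and Irf8 values was not tested. The experiments differed in the ratio of 3′ to 5′ signal of beta-actin, at 40.4 to 52.2 in experiment 2, against 1.41 to 1.76 in experiment 1. The TCRgd CD8aa array of experiment 2 stood apart in enterocyte markers, whose summed signal over 14 genes was 28264 there and 1345.8 to 2658.6 on the other arrays. One of these markers, Epcam, was higher on every CD8aa array. It had 617.0 and 517.2 in TCRab CD8aa and 350.8 and 693.9 in TCRgd CD8aa, against 75.9 and 38.1 in TCRab CD8ab. The differences of Irf4, Irf8, Irf7 and Ctla4 are also given without the TCRgd CD8aa array of experiment 2, as are those of other genes whose call changed without it. Counts and medians of lists use all 6 arrays. In bulk samples, fewer cells of a type and less RNA per cell cannot be told apart.

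Irf4 was lower and Irf8 was higher in both CD8aa subsets than in TCRab CD8ab, in both experiments. Between the TCRgd CD8aa and TCRab CD8aa subsets, and for Irf1 and Irf7 in any comparison, no difference passed the test. The test was limma across 8296 probe sets, with a Benjamini-Hochberg adjusted p under 0.05 called. It was fitted with the experiment as a block, since the 3 subsets of an experiment came from the same mice, and also without the block. All 5 member probe sets passed the filter on low signal, which asked for at least 2 arrays of any subset above 56.4.

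**Figure D1:**
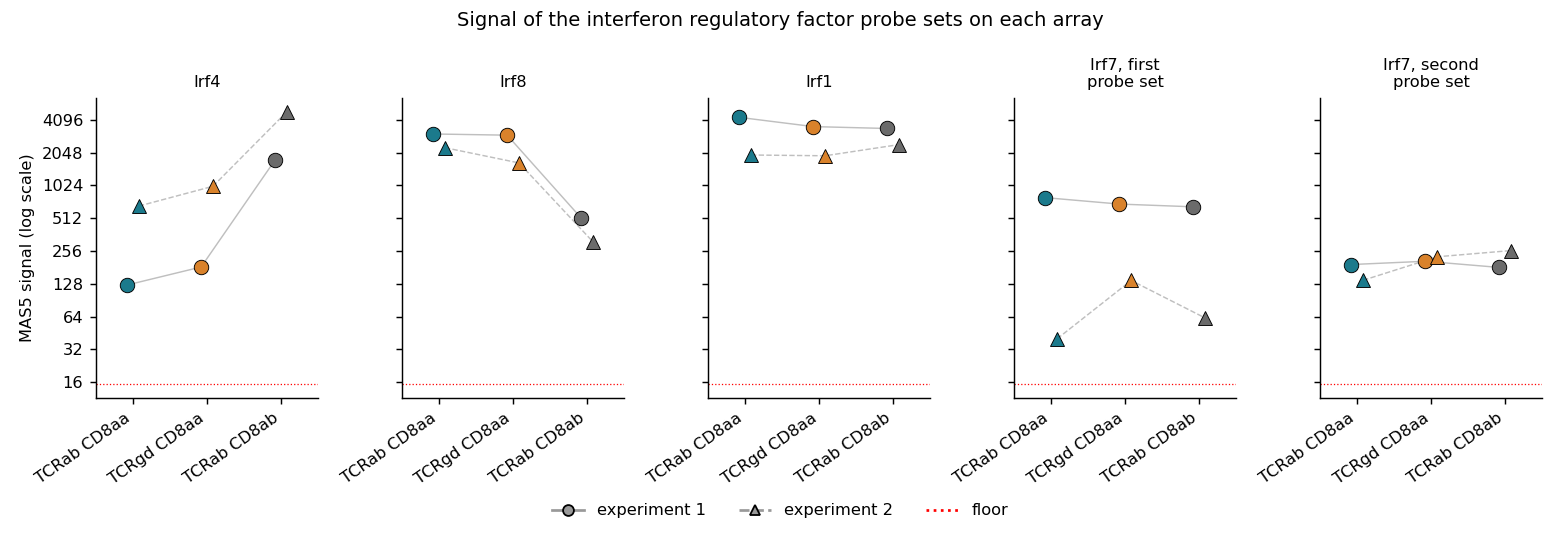
MAS5 signal on a log axis for the 5 member probe sets, one panel each, in TCRab CD8aa, TCRgd CD8aa and TCRab CD8ab from left to right, with circles for experiment 1 and triangles for experiment 2. Irf4 was lowest on the 4 CD8aa arrays (124.8 to 1007.0) and Irf8 was highest on them (1649.3 to 3043.6), while the first Irf7 probe set was separated by experiment.

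Irf4 had signals of 124.8 and 662.8 in TCRab CD8aa lymphocytes in experiments 1 and 2. In TCRgd CD8aa lymphocytes its signals were 182.7 and 1007.0, and in TCRab CD8ab lymphocytes they were 1761.0 and 4887.5. All 4 CD8aa arrays were below both TCRab CD8ab arrays, so the ranges did not overlap. In TCRab CD8aa Irf4 was 14.1-fold lower than in TCRab CD8ab in experiment 1 and 7.37-fold lower in experiment 2, and in TCRgd CD8aa it was 9.64-fold and 4.85-fold lower. With the block, the log2 difference was -3.35 ± 0.36 for TCRab CD8aa (SE; limma adjusted p = 0.00345) and -2.77 ± 0.36 for TCRgd CD8aa (limma adjusted p = 0.0115), each against TCRab CD8ab. Both values were called. Without the TCRgd CD8aa array of experiment 2, the second difference was -3.03. In both subsets together Irf4 was lower by 3.06 ± 0.31 log2 units, which is 8.35-fold (limma adjusted p = 0.00182 with the block), and by 3.19 without that array. The subsets were thus ordered TCRab CD8ab highest, then TCRgd CD8aa, then TCRab CD8aa. The last 2 could not be separated: TCRgd CD8aa minus TCRab CD8aa was 0.58 ± 0.36, with a 95% interval of -0.23 to 1.38, although it was positive in both experiments (0.55 and 0.60). Without the TCRgd CD8aa array of experiment 2 it was 0.32. That array also stood apart in the summed signal of 4 markers of plasma cells, in which Irf4 is abundant. The sums were 272.6 and 377.7 in TCRab CD8aa and 239.9 and 4302.8 in TCRgd CD8aa, against 817.2 and 213.5 in TCRab CD8ab. Jchain alone, at 4023.1, made up most of the sum of that array. Sdc1 and Tnfrsf17 were also highest there, at 99.4 and 167.9, while Iglc1 was lowest there, at 12.4. None of the 4 was called, and their part in the Irf4 values was not tested. Without the block the SE of Irf4 grew to 1.14 and no difference was called; the unadjusted p was 0.0243 for TCRab CD8aa and 0.0488 for TCRgd CD8aa against TCRab CD8ab, and the adjusted limma p was 1.00 for each.

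Irf8 had signals of 3043.6 and 2277.4 in TCRab CD8aa lymphocytes in experiments 1 and 2. Its signals were 2966.7 and 1649.3 in TCRgd CD8aa lymphocytes, and 513.2 and 310.1 in TCRab CD8ab lymphocytes. Every CD8aa array was above both TCRab CD8ab arrays. TCRab CD8aa exceeded TCRab CD8ab by 5.93-fold in experiment 1 and by 7.34-fold in experiment 2, and TCRgd CD8aa did so by 5.78-fold and 5.32-fold. With the block, the log2 difference from TCRab CD8ab was 2.72 ± 0.30 for TCRab CD8aa (SE; limma adjusted p = 0.00345) and 2.47 ± 0.30 for TCRgd CD8aa (limma adjusted p = 0.00824). The second was 2.61 without the TCRgd CD8aa array of experiment 2. One array decided the first call: without the TCRab CD8aa array of experiment 2 the difference was 2.54 and its adjusted limma p was 0.0642. Both subsets together were higher by 2.60 ± 0.26, which is 6.05-fold (limma adjusted p = 0.00171 with the block), and by 2.67 without the TCRgd CD8aa array of experiment 2. TCRab CD8aa and TCRgd CD8aa stood first and second in level, and did not differ beyond their spread (TCRgd CD8aa minus TCRab CD8aa -0.25 ± 0.30, 95% interval -0.92 to 0.42, and -0.11 without that array). Without the block none was called, with an SE of 0.56, unadjusted p of 0.00236 and 0.00387, and adjusted limma p of 0.617 and 1.00 for TCRab CD8aa and TCRgd CD8aa against TCRab CD8ab.

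Of the 5 member probe sets, 2 were thus called in each comparison of a CD8aa subset with TCRab CD8ab, both with the block. Of all probe sets tested, 0.82% (68 of 8296) were called when TCRab CD8aa was set against TCRab CD8ab, and 0.554% (46) when TCRgd CD8aa was. For the mean of both CD8aa subsets against TCRab CD8ab, 2 members were called beside 1.07% (89) of all probe sets. No member was called for TCRgd CD8aa against TCRab CD8aa, beside 0.0241% (2) of all probe sets. Without the block 0% were called in each comparison, with 187, 168, 34 and 217 probe sets at an unadjusted p under 0.05 for TCRab CD8aa against TCRab CD8ab, TCRgd CD8aa against TCRab CD8ab, TCRgd CD8aa against TCRab CD8aa and the mean. These comparisons share their arrays and are not independent. Among the called probe sets neither gene was extreme. By size of the mean difference, Irf4 was the 14th of 36 lower ones and Irf8 the 30th of 53 higher ones.

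**Figure D2:**
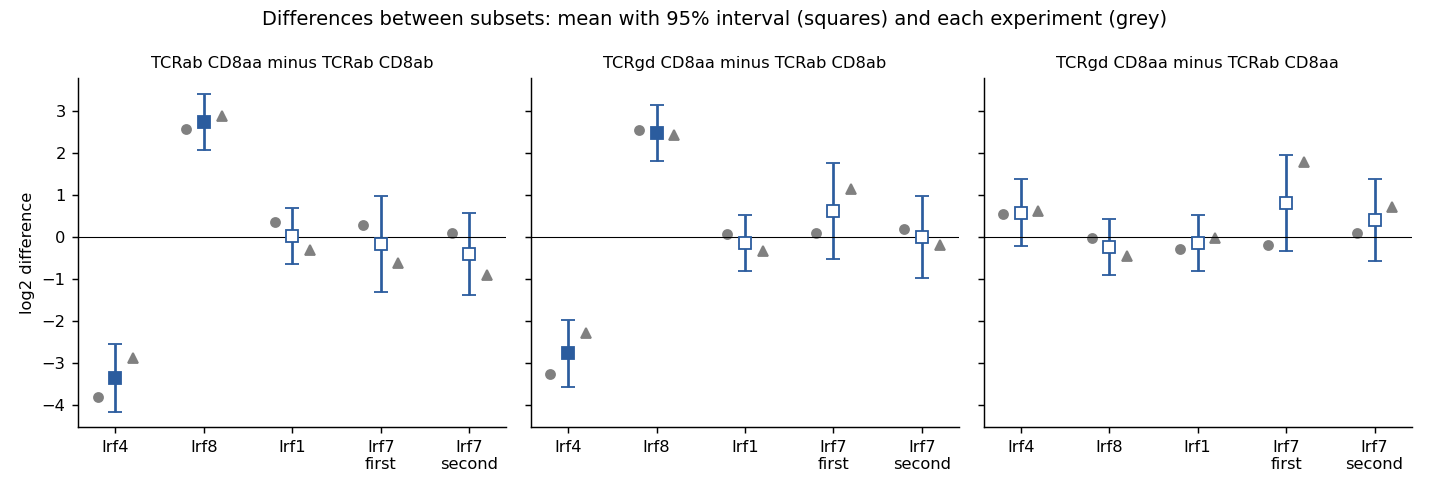
Log2 differences of the 5 member probe sets in the 3 comparisons between subsets, with squares for the fit with the experiment as a block, bars for its 95% interval, grey circles for experiment 1 and grey triangles for experiment 2. Filled squares were called; these were Irf4 (-3.35 and -2.77) and Irf8 (2.72 and 2.47) against TCRab CD8ab.

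The pair was also compared within each array, so that the scaling of an array cancels. The log2 signal of Irf8 minus that of Irf4 was 4.61 and 1.78 in TCRab CD8aa and 4.02 and 0.71 in TCRgd CD8aa, against -1.78 and -3.98 in TCRab CD8ab, in experiments 1 and 2. These are differences between 2 probe sets, so only their shift between subsets can be read. The mean of the CD8aa subsets was shifted by 5.66 from TCRab CD8ab, by 6.09 in experiment 1 and 5.22 in experiment 2. All 4 CD8aa arrays lay above both TCRab CD8ab arrays. An exact two-sided permutation test gave p = 0.0667, the smallest value that the 15 splits of 6 arrays allow, so this test could not pass 0.05. Its splits move arrays freely between the experiments and the pair was chosen with earlier results known, so this p restates the separation of the arrays and adds no support. Without the TCRgd CD8aa array of experiment 2 the shift was 6.35. TCRgd CD8aa lay below TCRab CD8aa by 0.59 and 1.07 in experiments 1 and 2.

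Irf1, an activator induced by interferon gamma, had signals of 4326.2 and 1950.4 in TCRab CD8aa and 3557.7 and 1919.4 in TCRgd CD8aa, against 3417.1 and 2432.4 in TCRab CD8ab. The CD8aa arrays lay above TCRab CD8ab in experiment 1 and below it in experiment 2. The differences with the block were 0.01 for TCRab CD8aa and -0.14 for TCRgd CD8aa against TCRab CD8ab (SE 0.30 each). The 95% interval for the mean of both was -0.64 to 0.51, so a change of the size of those of Irf4 or Irf8 lay outside it.

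Irf7 was read by 2 probe sets, which did not behave alike. The first had signals of 791.9 and 40 in TCRab CD8aa, 691.3 and 137.4 in TCRgd CD8aa, and 652.2 and 62.1 in TCRab CD8ab. The 3 subsets lay close together in experiment 1 and all were low in experiment 2. The second, whose suffix _f_at marks probes that can match related sequences, had 192.4 and 138.0 in TCRab CD8aa, 206.3 and 226.8 in TCRgd CD8aa, and 180.9 and 258.7 in TCRab CD8ab. For the mean of both CD8aa subsets against TCRab CD8ab, the 2 probe sets gave 0.22 ± 0.44 and -0.20 ± 0.37 (SE), of opposite sign, and no comparison was called for either. The intervals were wide, from -0.77 to 1.21 and from -1.05 to 0.64. Without the TCRgd CD8aa array of experiment 2 the values were -0.16 and -0.23, so the sign of the first probe set turned.

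The experiments themselves differed for 3 of the 5 member probe sets, beside 34.1% (2826 of 8296) of all probe sets tested, of which 1138 were higher and 1688 lower in experiment 2. Experiment 2 minus experiment 1, over all 3 subsets, was 2.11 ± 0.29 for Irf4 (SE; limma adjusted p = 0.000932), which is 4.33-fold higher in experiment 2. Irf7 by its first probe set was 10.2-fold lower in experiment 2 (limma adjusted p = 0.000567) and Irf1 1.79-fold lower (limma adjusted p = 0.0254), while Irf8 at -0.66 ± 0.24 was not called (limma adjusted p = 0.0602). The second Irf7 probe set differed by 0.06 ± 0.35. The beta-actin ratio given above moved with the experiment, and its part in these differences was not tested.

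The other members of the family on the array were Irf3, a sensor-activated inducer of type I interferon, Irf5, which acts downstream of Toll-like receptors, and Irf9, which takes part in responses to type I interferon. None of the 3 was called in any comparison. Irf9 had 1111.6 and 1261.2 in TCRab CD8aa and 925.1 and 1222.6 in TCRgd CD8aa, against 1471.5 and 1630.5 in TCRab CD8ab, so that its ranges did not overlap, but the mean difference was -0.47 ± 0.25 (SE; limma adjusted p = 0.53 with the block). Irf5 differed by 0.11 ± 0.39 and Irf3, by its brighter probe set, by -0.64 ± 0.43, and both had opposite signs in the 2 experiments (0.56 and -0.33 for Irf5, 0.14 and -1.42 for Irf3 in experiments 1 and 2). The second Irf3 probe set, also an _f_at probe set, gave a mean difference of 0.44 ± 0.56, of opposite sign to the brighter one. Its signals were low on all arrays, at 42.1 to 94.6. The brighter Irf3 probe set was 4.56-fold lower in experiment 2 (limma adjusted p = 0.00336). The second differed between experiments by -0.16 ± 0.53, a split between 2 probe sets of 1 gene like that of Irf7.

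By the pattern over the 6 arrays, each centred on the mean of its experiment, the 5 genes nearest to Irf4 were Tnfsf11, the cytokine RANKL, Rgs10, a regulator of G protein signalling, the transcription factors Klf3 and Rora, and the lectin Lgals1. Their root mean square distances from Irf4 were 0.159, 0.162, 0.226, 0.252 and 0.327 log2 units. Rgs10 had 133.8 and 96.0 in TCRab CD8aa and 176.9 and 114.7 in TCRgd CD8aa, against 1479.5 and 735.8 in TCRab CD8ab. Lgals1 had 251.2 and 188.7 in TCRab CD8aa and 349.1 and 197.0 in TCRgd CD8aa, against 1940.7 and 1340.3 in TCRab CD8ab. Both followed Irf4 in being low on every CD8aa array, although Irf4 itself was higher in experiment 2 and both of these were lower there.

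The 5 genes nearest to Irf8 were Selenbp1, a selenium-binding protein, Klra3, a Ly49 receptor, Myo6, an unconventional myosin, Lat2, an adaptor of antigen and Fc receptor signalling, and Eef2k, the kinase of elongation factor 2. Their distances were 0.108, 0.145, 0.184, 0.213 and 0.26. Lat2 had 4508.5 and 4789.2 in TCRab CD8aa and 4417.0 and 3972.3 in TCRgd CD8aa, against 985.4 and 496.3 in TCRab CD8ab. Myo6 had 317.0 and 654.5 in TCRab CD8aa and 227.2 and 482.1 in TCRgd CD8aa, against 36.7 and 76.5 in TCRab CD8ab. The Klra3 probe set ends in _f_at and may also read other Ly49 genes. All 10 genes were picked for their pattern, so their differences are a description.

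**Figure D3:**
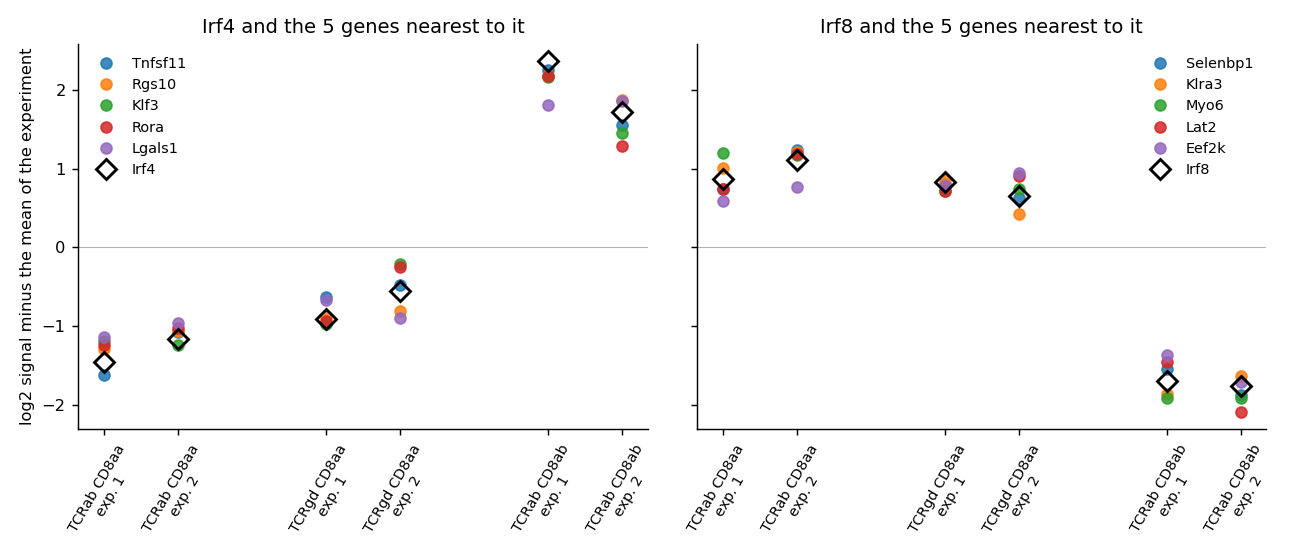
Log2 signal minus the mean of the experiment, on each of the 6 arrays, for Irf4 and the 5 genes nearest to it (left) and for Irf8 and the 5 genes nearest to it (right), with diamonds for the factor itself. The distances ran from 0.159 to 0.327 log2 units around Irf4 and from 0.108 to 0.26 around Irf8.

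Genes that act with Irf4 or are known targets of it in activated T cells were listed apart, 25 of them tested. For the mean of both CD8aa subsets against TCRab CD8ab with the block, 1 was called lower and none higher, with a median log2 difference of -0.15, against 32 called lower, 43 called higher and a median of -0.06 over all 6106 tested genes. The called one was Ctla4, an inhibitory receptor induced on activated T cells. Its signals were 3967.1 and 4951.3 in TCRab CD8aa and 3007.5 and 4485.1 in TCRgd CD8aa, against 11152 and 12116 in TCRab CD8ab. All CD8aa arrays were below both TCRab CD8ab arrays, by 1.53 ± 0.25 log2 units (SE; limma adjusted p = 0.0218 with the block, 0.893 without it). The call was lost without either TCRab CD8ab array. The difference was -1.36 without that of experiment 1 and -1.69 without that of experiment 2. With all arrays, it was also lost without the filter (limma adjusted p = 0.384) and without the intensity trend of limma (limma adjusted p = 0.2015). Ctla4 was called for TCRgd CD8aa (limma adjusted p = 0.0428) and not for TCRab CD8aa (limma adjusted p = 0.0752) against TCRab CD8ab, and the difference between these was not called. Without the TCRgd CD8aa array of experiment 2 the mean difference was -1.62.

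Of the partners and targets of Irf8 in myeloid and innate cells, 14 were tested and none was called, with a median of 0.39. Of these, 6 were higher and 1 lower in the CD8aa subsets in both experiments, beside 23.6% higher and 29.8% lower of all tested genes. Klf4, a transcription factor of monocytes, differed by 0.94 ± 0.29, Spib, an Ets factor of B cells and plasmacytoid dendritic cells, by 1.82 ± 0.59, and Ctsc, a protease that activates granzymes, by 0.75 ± 0.25 (SE; limma adjusted p = 0.253, 0.273 and 0.277 with the block).

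Interferons, their receptors and the JAK-STAT chain numbered 15 tested genes, with none called and a median of -0.17. Ifng, interferon gamma, had 148.7 and 575.0 in TCRab CD8aa and 193.2 and 2283.9 in TCRgd CD8aa, against 606.9 and 2954.8 in TCRab CD8ab. It was below TCRab CD8ab in both subsets within each experiment, by -1.60 ± 0.36 in the mean (SE; limma adjusted p = 0.0951 with the block). Without the TCRab CD8aa array of experiment 1 the mean difference of Ifng was -1.85. It was -1.96 without the TCRgd CD8aa array of experiment 2. Ifnar2, a chain of the type I receptor, differed by -0.95 ± 0.33, and Ifngr2, a chain of the interferon gamma receptor, by -2.25 ± 0.83 with 2 arrays at the floor. Ifngr2 differed by -2.91 without the TCRgd CD8aa array of experiment 2, by -3.72 in experiment 1 and by -0.78 in experiment 2. Among 7 tested sensors and kinases upstream of Irf3 and Irf7 none was called, the median was -0.16, and the kinase Ikbke, the kinase Irak1 and the RNA sensor Ifih1 differed by -0.94, 0.65 and -0.44. Over the alternatives Ikbke ranged from -1.25 to -0.62 and Irak1 from 0.23 to 1.06, with neither called.

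Interferon-induced targets numbered 23 tested genes, none called, with a median of -0.46. Of these, 15 were lower and 1 was higher in the CD8aa subsets in both experiments, which is 65.2% and 4.35%, beside 29.8% and 23.6% of all tested genes. Ifit3, an antiviral protein of the IFIT family, had 27.1 and 19.1 in TCRab CD8aa and 72.0 and 14.7 in TCRgd CD8aa, against 238.1 and 116.3 in TCRab CD8ab. With 1 array at the floor, its mean difference was -2.60 ± 0.63 (SE; limma adjusted p = 0.119 with the block), and -2.965 without the TCRgd CD8aa array of experiment 1. Iigp1, an immunity-related GTPase, was at the floor of 15.3 on all 4 CD8aa arrays and had 94.8 and 154.3 in TCRab CD8ab, at least 7.9-fold lower in the CD8aa subsets (limma adjusted p = 0.122 with the block). Without the TCRgd CD8aa array of experiment 1 the log2 difference of Iigp1 was -3.07. Mx1, an antiviral GTPase, differed by -2.23 ± 0.68 with 1 array at the floor. Antigen presentation targets of interferon signalling numbered 15 tested genes, none called, with a median of -0.50, and 9 (60%) were lower and 1 (6.67%) higher in both experiments, beside the same shares of all genes. Psmb9, a subunit of the immunoproteasome, differed by -0.74 ± 0.25, its activator Psme1 by -0.92 ± 0.31 and the peptide transporter Tap1 by -0.62 ± 0.25.

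**Figure D4:**
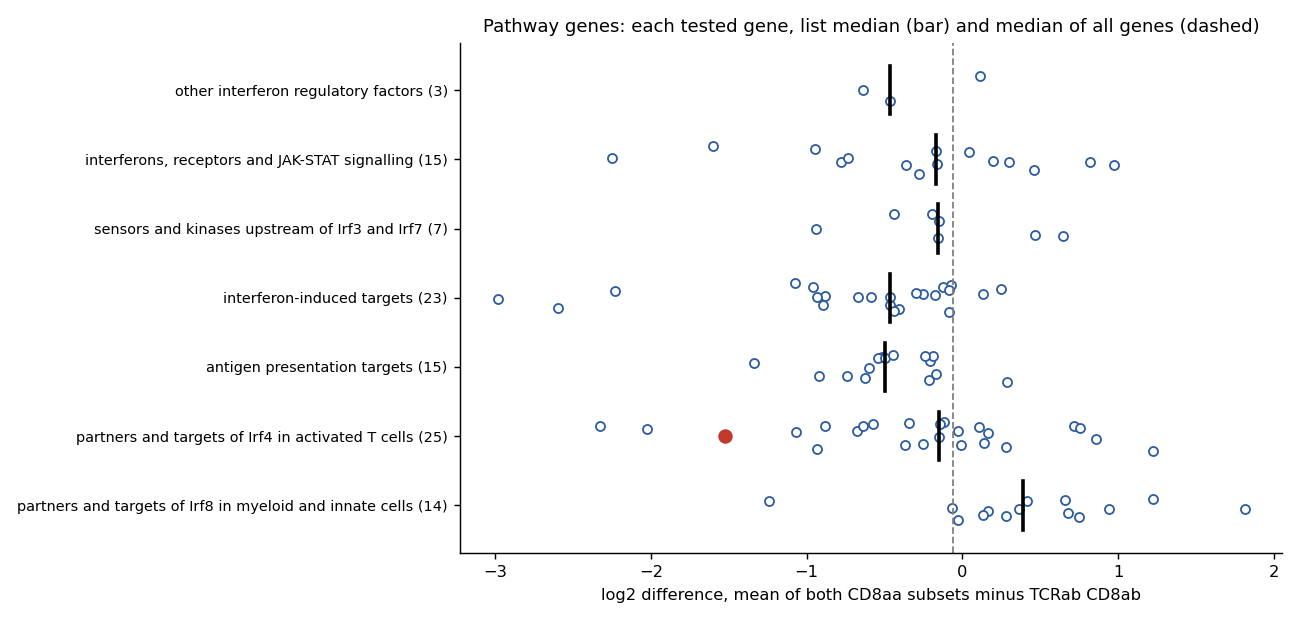
Log2 difference, mean of both CD8aa subsets minus TCRab CD8ab, of every tested gene of 7 lists, with the number tested in parentheses, a bar at each list's median and a dashed line at the median of all genes (-0.06). The 1 filled point is Ctla4 (-1.53), the only called gene of these lists with the block.

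Since Irf8 is abundant in B cells and myeloid cells, their markers are given beside it. Of 6 tested B cell markers, Ighm, the mu heavy chain, was called higher in the mean of both CD8aa subsets, with signals of 3904.8 and 1105.4 in TCRab CD8aa and 3400.7 and 648.0 in TCRgd CD8aa, against 1265.1 and 261.8 in TCRab CD8ab. That difference was 1.61 ± 0.26 (SE; limma adjusted p = 0.0237 with the block). The call was lost without the TCRab CD8aa or the TCRab CD8ab array of experiment 2, where the difference was 1.48 and 1.53. With all arrays, it was also lost without the filter (limma adjusted p = 0.388) and without the intensity trend of limma (limma adjusted p = 0.191). Summed over 9 B cell markers, the signal was 4703.4 and 1893.0 in TCRab CD8aa and 4359.3 and 2016.7 in TCRgd CD8aa, against 2030.0 and 1859.1 in TCRab CD8ab. The sums of both CD8aa subsets were above that of TCRab CD8ab in both experiments, by more in experiment 1. Ighm alone, at 3904.8 and 3400.7, made up most of the CD8aa sums of experiment 1. The 6 tested markers had a median log2 difference of -0.73 for the mean of both CD8aa subsets. Of these, 2 were higher and 3 lower in both experiments, beside 23.6% higher and 29.8% lower of all tested genes. Cr2 was at the floor on all 6 arrays, Cd22 on 4, and Cd79a had 50.7 to 95.7 in the CD8aa subsets against 80.2 and 206.0 in TCRab CD8ab. None of 13 tested myeloid and dendritic markers was called. Their summed signal over 18 genes was 3678.1 and 2099.1 in TCRab CD8aa and 4460.9 and 4783.1 in TCRgd CD8aa, against 2935.1 and 2848.3 in TCRab CD8ab. In experiment 1 the gene Itgax alone gave 1692.6 and 2233.1 of the TCRab CD8aa and TCRgd CD8aa sums, against 682.1 in TCRab CD8ab. The 13 tested markers had a median log2 difference of -0.11 for the mean of both CD8aa subsets, with 4 higher and 5 lower in both experiments. Lyz2 was at the floor on 5 arrays and at 303.0 on the TCRgd CD8aa array of experiment 2, where Mpeg1 was 669.6. The part of the remaining marker differences in the Irf8 result was not tested.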

How the data were processed

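Messenger RNA was measured on 6 Affymetrix arrays, 2 for each of 3 sorted IEL subsets. Per the submitters' processing notes, the authors used MAS5, of which no version is given, and the deposited values are its signal intensity on a linear scale. The values show scaling of each array to a common trimmed mean. Gene symbols came from the platform annotation: of 12488 probe sets, 66 were controls, 10833 had 1 symbol, 396 several and 1193 no entry.

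Signals under the 20th percentile of all values (15.3) were set to it, here called the floor, and log2 was taken. Probe sets with at least 2 arrays above the 40th percentile (56.4) were tested, 8296 in all. The 4 comparisons (each pair of subsets, and the mean of both CD8aa subsets against TCRab CD8ab) were fitted with limma 3.58.1 in R 4.3.3, with the intensity trend in eBayes, on all 6 arrays. The planned main design had no term for the experiment. A second planned fit had the experiment as a block, because the design text says that the subsets of 1 experiment were sorted from 1 pool of mice, so the replicate number pairs the arrays. Deviations of same-numbered arrays from the means of their subsets correlated across probe sets with r of 0.619, 0.713 and 0.603. Standard errors and intervals are those with the block unless stated. P-values with the block rest on the spread left after the subset and experiment means are removed. That spread has 2 residual degrees of freedom, beside a median of 7.15 prior ones that limma takes from all tested probe sets. P-values without the block also hold the difference between the pools. Neither measures the spread between mice, and the number of arrays limits the precision.

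A gene of a list was read by its brightest probe set. The genes named are all members, the 5 genes nearest to Irf4 and to Irf8, and of each list the called genes or else the 3 with the smallest p. The members, the lists and these rules were chosen with earlier results of these data known. Marker genes of other cell types, and Cd8b1, are named as checks. Detection calls were not used here. The fit was also run on simulated data with independent normal noise. That run was a check of the code and does not bear on the calls given here. Alternatives were quantile normalization, another floor or an added constant of 16, other filters, eBayes without the trend, the arrays of the groups compared alone, and each array left out in turn.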

Additional observations from a re-analysis of the deposited data

How the results depend on the processing

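The choice of the replicate block decided the calls. Without it no probe set was called in any of the 4 comparisons (count 0 in each). With it, for TCRab CD8aa against TCRab CD8ab, TCRgd CD8aa against TCRab CD8ab, TCRgd CD8aa against TCRab CD8aa, and the mean of both CD8aa subsets against TCRab CD8ab, 68, 46, 2 and 89 were called. The log2 differences are equal in both fits, at -3.35, -2.77 and -3.06 for Irf4 and 2.72, 2.47 and 2.60 for Irf8 in the 3 comparisons with TCRab CD8ab, and only the errors change. The calls also rested on the filter and the variance model, in the fit with the block. Without a filter the 4 counts were 0, and Irf4 had limma adjusted p of 0.522, 0.483 and 0.384 and Irf8 of 0.522, 0.335 and 0.371. That fit held 12422 probe sets, of which 664 were at the floor on all arrays, and its median prior degrees of freedom were 1.01, against 7.15 with the filter. Without the intensity trend the counts were 6, 3, 1 and 18, and the limma adjusted p was 0.0914, 0.175 and 0.0569 for Irf4 and 0.094, 0.165 and 0.0569 for Irf8. With only the arrays of the groups compared, 169 were called for TCRab CD8aa against TCRab CD8ab, and with quantile normalization 1 was called for TCRgd CD8aa against TCRab CD8aa. The cause of the last 3 changes was not tested.

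Leaving out each array in turn, with the block, gave 22 (without TCRab CD8aa replicate 2) to 182 (without TCRgd CD8aa replicate 1) calls for TCRab CD8aa against TCRab CD8ab. The counts were 30 (without TCRab CD8ab replicate 2) to 193 (without TCRgd CD8aa replicate 1) for TCRgd CD8aa against TCRab CD8ab, 1 to 114 between the CD8aa subsets and 68 to 278 for the mean, the highest again without TCRgd CD8aa replicate 1. A subset left with 1 array is assumed to vary like the others, so a call gained without an array need not mean a clearer difference. Irf8 in TCRab CD8aa against TCRab CD8ab ranged from 2.54 to 2.91 and lost its call without TCRab CD8aa replicate 2. Over the alternatives with the block, 32 of 38 calls of Irf4 and 31 of 38 of Irf8 stood, with differences of -3.83 to -2.29 and 2.33 to 2.91. Values of Irf1 and Irf7 passed in none of 55 and 110 alternatives to the fit with the block, and changed sign in 7 and 9. The shift of Irf8 against Irf4 stayed between 4.56 and 6.76 in 9 alternatives.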
